A study of Mus musculus with 4 samples.

Results

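The genes of DNA methylation and its removal were examined in T8 leukemia cells with and without re-expressed IRF4. The 9 genes were taken from a fixed list of names, *Dnmt1*, *Dnmt3a*, *Dnmt3b*, *Uhrf1*, *Tet1*, *Tet2*, *Tet3*, *Tdg* and *Mbd2*, and all 9 were found among the 55359 gene identifiers of the count table. T8 is a line grown from 1 primary preB cell leukemia of an *Irf4*-/- mouse, so every library shares this deletion and this tumor of origin, and the paper describes its *Jak3* as mutated. Cells were transduced with a retrovirus coding for GFP alone (EV-RV) or for GFP plus IRF4 (IRF4-RV). According to the paper, cells that were still viable a day later were compared, and IRF4 re-expression led to apoptosis. The libraries thus describe the cells that remained. RNA was sequenced in bulk from 2 libraries per group. The design text calls the libraries biological replicates without naming separate cultures, and p-values measure only the spread between them. The growth and transduction protocols in the labels name a different line, T11, while titles and tissue name T8, and the libraries were used as T8.

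In mammals, cytosine is methylated mainly where it precedes guanine (CpG). DNMT3A and DNMT3B set new methyl groups, and DNMT1 copies the pattern onto the new strand after replication, guided by UHRF1, which binds hemimethylated CpG. TET enzymes oxidize the methyl group, TDG excises the oxidized bases so that repair restores plain cytosine, and MBD2 binds methylated CpG and brings in the NuRD repressor complex. In B lymphopoiesis, TET2 and TET3 are known for opening enhancers of the immunoglobulin light chain loci, and *DNMT3A* and *TET2* are recurrently mutated in human blood cancers. The libraries hold RNA levels only, and neither DNA methylation nor enzyme activity was measured.

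Depth was similar, from 31230223 to 37817752 counts per library. A level of 3 counts, used here as the limit of detection, was between 0.0824 and 0.0952 CPM (counts scaled to a common library size after TMM factors). Only counting error enters this limit. *Irf4* had 7600 to 8070 counts in EV-RV libraries and 90693 to 95578 in IRF4-RV libraries, where vector and endogenous transcripts cannot be told apart. The EV-RV cells are *Irf4*-/- and received no IRF4 vector. Their counts are RNA assigned to this gene and do not show IRF4 protein, which was not measured in these libraries. The B-lineage markers *Cd79a*, *Cd79b*, *Pax5* and *Ebf1* were at 99.2 to 916.1 CPM in both group means, while the recombinase genes *Rag1* and *Rag2* had at most 1 count in any library. Of 12 B progenitor markers tested, 6 were called in edgeR. The surrogate light chain genes *Vpreb1* and *Igll1* fell by 1.49 and 1.30 on the log2 scale, *Dntt* by 1.55 and *Il7r* by 0.29, whereas *Ptprc* and *Bst1* rose by 0.53 and 0.33 (largest adjusted p = 0.0686). Stromal markers set 1 library apart, since the 12 genes of that list summed to 58.7 and 112 CPM with EV-RV, and to 58.2 and 269.4 CPM with IRF4-RV, highest in IRF4-RV replicate 2. Of these, 9 could be tested and 0 were called in edgeR (0 at an unadjusted p under 0.05, 0 with DESeq2, and 8 higher with a replicate block or with no filter on low counts), and the stromal markers *Dcn* and *Lum* had at most 2 counts. Single libraries decided this count, since 9 were higher without IRF4-RV replicate 1 and 3 were lower without IRF4-RV replicate 2. Of 10 T and NK markers, 7 had at most 3 counts in each library, as did 10 of 12 macrophage and granulocyte markers, of which *Mrc1* was the one called higher. T and NK markers summed to 19.9 and 20.4 CPM with EV-RV and 12.7 and 13.1 CPM with IRF4-RV, nearly all of it *Trac*, which was called lower (18.37 and 19.13 against 11.54 CPM in each IRF4-RV library, edgeR adjusted p = 0.00229), with *Cd8a* and *Ncr1* at 0. Summed levels were 1.56 and 1.4 against 8.5 and 7.28 CPM for macrophage and granulocyte markers, with *Adgre1* and *S100a8* at 0. The part of other cells in the results was not tested, and in bulk RNA fewer cells of a type cannot be told apart from less RNA per cell.

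Of the 9 genes, 8 passed the filter on low counts, and 5 of these 8 differed between the groups at a false discovery rate (FDR) of 0.1. *Uhrf1*, *Dnmt3a*, *Dnmt3b* and *Mbd2* were lower with IRF4-RV and *Tet2* was higher. *Dnmt1*, *Tdg* and *Tet3* were not called, and *Tet1* was too low to be tested. Among all 14637 genes tested with edgeR's quasi-likelihood test, 29.7% were called, 16.0% higher and 13.7% lower, so that many genes moved in this experiment. With library size alone as scaling, the share of higher genes among all calls was 37.8% in place of 53.8%, and over all genes the median log2 fold change moved from 0.0073 to -0.0832. All 8 tested genes kept their direction under the 3 other scalings and tools run on all 4 libraries. The median log2 fold change of the 8 genes was -0.28, with 7 of 8 below 0. In 7 of the 8 the CPM of the groups did not overlap, but this held for 61.3% of all genes tested. With only 2 libraries per group, leaving out each IRF4-RV library in turn lowered the number of these genes called to 3.

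**Figure D1:**
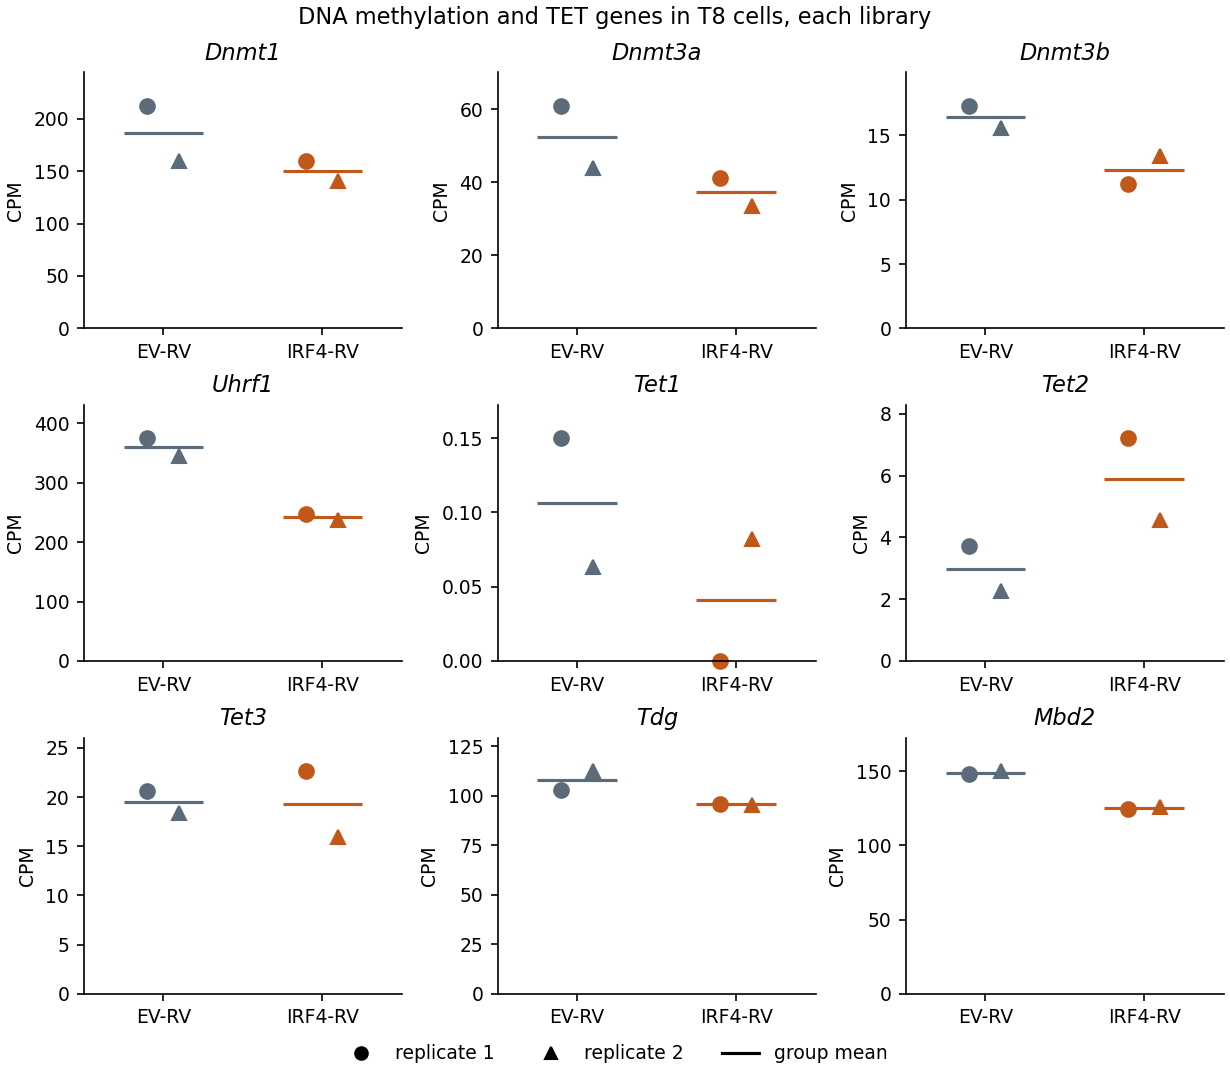
CPM (vertical axes, each starting at 0 with its own range) of the 9 genes in the EV-RV libraries (gray) and the IRF4-RV libraries (orange), with circles for replicate 1, triangles for replicate 2 and lines for group means. *Uhrf1* sat at 345 and 374.8 CPM with EV-RV against 238.1 and 247.3 CPM with IRF4-RV, whereas *Tet2* sat higher in both IRF4-RV libraries and *Tet3* overlapped between the groups.

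*Uhrf1* (ENSMUSG00000001228), the partner that directs DNMT1 to newly replicated DNA, is encoded on chromosome 17 (GRCm38, 56303321 to 56323486, plus strand). The EV-RV libraries held 12506 and 10876 of its counts, the IRF4-RV libraries 8374 and 8668. Both IRF4-RV libraries were below both EV-RV libraries. From a mean of 359.9 ± 21.1 CPM the level fell by 32.6% to 242.7 ± 6.49 CPM (SD, n = 2 each), and the log2 fold change was -0.57 (SE 0.076, edgeR adjusted p = 0.00159). It was the only one of the 9 genes called with every library left out in turn, with log2 fold changes from -0.63 to -0.51 and adjusted p of at most 0.00449.

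RefSeq lists 2 promoters for *Uhrf1* on GRCm38.p6, and they are shown since this gene had the firmest change and since both hold a short E2F motif, the kind of site through which many replication genes are controlled. Capitals mark the motif, and bases overlapping annotated exons were left out.
*Uhrf1* first promoter, chr17:56303087-56303320, plus strand: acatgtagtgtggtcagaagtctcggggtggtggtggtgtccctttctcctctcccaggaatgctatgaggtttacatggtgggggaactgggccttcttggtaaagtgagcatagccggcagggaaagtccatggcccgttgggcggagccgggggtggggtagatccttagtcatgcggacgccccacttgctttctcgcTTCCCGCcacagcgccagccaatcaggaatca
*Uhrf1* second promoter, chr17:56304063-56304312, plus strand: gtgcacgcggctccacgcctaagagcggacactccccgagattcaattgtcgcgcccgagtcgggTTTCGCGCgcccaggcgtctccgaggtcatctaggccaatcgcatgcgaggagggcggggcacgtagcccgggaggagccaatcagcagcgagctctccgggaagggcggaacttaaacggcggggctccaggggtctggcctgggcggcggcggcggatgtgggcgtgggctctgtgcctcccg
The E2F cores searched on both strands were TTTGGCGC, TTTCGCGC and TTCCCGC. Of the 32851 RefSeq promoters (250 bases before to 50 after the start), 5.33% hold at least 1 of them. Each core contains a CpG, and the *Uhrf1* promoters hold 12 and 33 CpG against a median of 7 over all promoters. The share among promoters equally rich in CpG was not computed. The match was TTCCCGC at -48 to -42 in the first and TTTCGCGC at -185 to -178 in the second promoter, counted from the RefSeq start. Among the other genes, only 1 of the 3 *Dnmt1* promoters held such a core, with 2 matches. No promoter of these genes held the interferon response core GAAANNGAA or the ETS-IRF core GGAANNGAA, which can overlap each other and occur in 8.56% and 8.24% of all promoters. *Mbd2* was not among the promoters used here. Which promoter T8 cells use cannot be told from counts per gene.

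*Dnmt1* (ENSMUSG00000004099, chromosome 9, 20907209 to 20959888, minus strand), the maintenance methyltransferase, was at 212.7 and 160.3 CPM with EV-RV and at 160 and 140.8 CPM with IRF4-RV. The lower EV-RV library and the higher IRF4-RV library lay side by side, with hardly a gap between the groups. The log2 fold change of -0.31 did not pass the threshold (SE 0.134, edgeR adjusted p = 0.144). DESeq2 gave an adjusted p of 0.0517, and in edgeR the gene was called without EV-RV replicate 2 (adjusted p = 0.0234) and without IRF4-RV replicate 1 (0.0299). Over the alternatives that keep all 4 libraries the adjusted p ranged from 3.79e-06 to 0.14. The lowest came with the replicate block, which leaves very little to estimate a gene's own spread from. With single libraries left out the log2 fold change ranged from -0.5 to -0.099. The ratio of *Uhrf1* to *Dnmt1* counts, which needs no scaling between libraries and was computed after the values were seen, was 1.76 and 2.15 with EV-RV against 1.55 and 1.69 with IRF4-RV, lower in both IRF4-RV libraries (exact permutation test, two-sided, p = 0.333, the smallest that 2 against 2 libraries can give).

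Both de novo methyltransferase genes were lower with IRF4-RV. *Dnmt3a* (ENSMUSG00000020661, chromosome 12, 3806007 to 3914443, plus strand) was at 60.99 and 43.9 CPM with EV-RV and at 41.16 and 33.48 CPM with IRF4-RV. It was highest in EV-RV replicate 1, and the other EV-RV library lay just above the IRF4-RV libraries. The level fell by 28.9%, a log2 fold change of -0.49 (SE 0.165, edgeR adjusted p = 0.0702). The call was lost without EV-RV replicate 1 (log2 fold change -0.24, adjusted p = 0.295) and without IRF4-RV replicate 2 (-0.35, adjusted p = 0.123). An antisense gene, *Dnmt3aos*, shares 133 exon bases with it.

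*Dnmt3b* (ENSMUSG00000027478, chromosome 2, 153649450 to 153687730, plus strand) was at 17.32 and 15.6 CPM with EV-RV and at 11.22 and 13.43 CPM with IRF4-RV. The groups did not overlap, and here the higher IRF4-RV library was replicate 2. This gene fell by 25.1%, a log2 fold change of -0.42 (SE 0.126, edgeR adjusted p = 0.0503). Without EV-RV replicate 1 the adjusted p was 0.181, and without IRF4-RV replicate 1 it was 0.203. Cofactor *Dnmt3l*, which stimulates the de novo enzymes in germ cells, had 0 counts in all 4 libraries. The ratio of *Dnmt3a* to *Dnmt3b* counts was 3.52 and 2.81 with EV-RV against 3.67 and 2.49 with IRF4-RV, so that it differed more between replicates than between groups.

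Among the TET genes, *Tet2* was higher with IRF4-RV, *Tet3* was not called and *Tet1* was near 0. *Tet2* (ENSMUSG00000040943, chromosome 3, 133463679 to 133545139, minus strand) had few counts, 124 and 71 in the EV-RV libraries, 244 and 166 in the IRF4-RV libraries, or 3.717 and 2.252 against 7.204 and 4.56 CPM. Both IRF4-RV libraries were above both EV-RV libraries, and replicate 1 was the higher one in each group. The log2 fold change was 0.97 (SE 0.297, edgeR adjusted p = 0.0515), a ratio of 1.96. It was 0.66 without EV-RV replicate 2 (adjusted p = 0.215) and 0.59 without IRF4-RV replicate 1 (adjusted p = 0.17), and it was 1.38 without EV-RV replicate 1 and 1.27 without IRF4-RV replicate 2. Of the 9 genes this one had the fewest counts among those called.

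The *Tet2* promoter in RefSeq had the most CpG of all promoters of these genes, 57 in its window, against a median of 7 over all 32851 promoters. Its 250 bases before the start are shown to set this CpG-rich start beside the 12 CpG of the first *Uhrf1* promoter. Nothing is in capitals, since none of the searched letters were found. A match or its lack describes the letters only.
*Tet2*, chr3:133544391-133544640, minus strand: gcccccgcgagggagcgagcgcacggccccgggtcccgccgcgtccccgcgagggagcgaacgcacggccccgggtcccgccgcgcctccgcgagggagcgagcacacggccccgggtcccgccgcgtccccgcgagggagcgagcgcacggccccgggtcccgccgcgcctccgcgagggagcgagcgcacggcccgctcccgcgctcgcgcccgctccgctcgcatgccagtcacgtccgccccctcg
Whether this region was methylated was not measured.

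*Tet3* (ENSMUSG00000034832, chromosome 6, 83362373 to 83459084, minus strand) was at 20.65 and 18.4 CPM with EV-RV and at 22.65 and 15.93 CPM with IRF4-RV. The IRF4-RV libraries lay on either side of the EV-RV libraries. Its log2 fold change was -0.02 (SE 0.165, edgeR adjusted p = 0.951), and the value changed sign when single libraries were left out, from -0.31 to 0.21. *Tet1* (ENSMUSG00000047146, chromosome 10, 62804570 to 62908996, minus strand) had between 2 and 5 counts in the EV-RV libraries, and 0 (replicate 1) and 3 in those with IRF4-RV. At these counts no difference could be shown.

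The makeup of both families was compared within each library, from levels per kilobase of merged exons. *Tet2* made up 15 and 10.8% of the summed TET level with EV-RV against 23.9 and 22% with IRF4-RV. The mean share went from 12.9% ± 3 to 23% ± 1.39 (SD, n = 2 each), 10.1 percentage points higher, and *Tet3* made up nearly all of the rest in every library. Among the methyltransferases, *Dnmt1* made up 79.8% ± 0.776 with EV-RV and 81.4% ± 1.3 with IRF4-RV (SD, n = 2 each), a difference of 1.57 points, and *Dnmt3a* 9.91% ± 0.419 and 8.93% ± 0.641. The libraries of the groups did not overlap for these 3 genes, and each exact permutation test gave p = 0.333, the smallest possible. For *Dnmt1* the groups all but touched, at 80.3% in EV-RV replicate 1 against 80.4% in IRF4-RV replicate 2. *Dnmt3a* was at 9.62% in EV-RV replicate 2 against 9.38% in IRF4-RV replicate 1. *Dnmt3b* overlapped, at 9.45 and 11.1% with EV-RV against 8.34 and 11.1% with IRF4-RV.

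**Figure D2:**
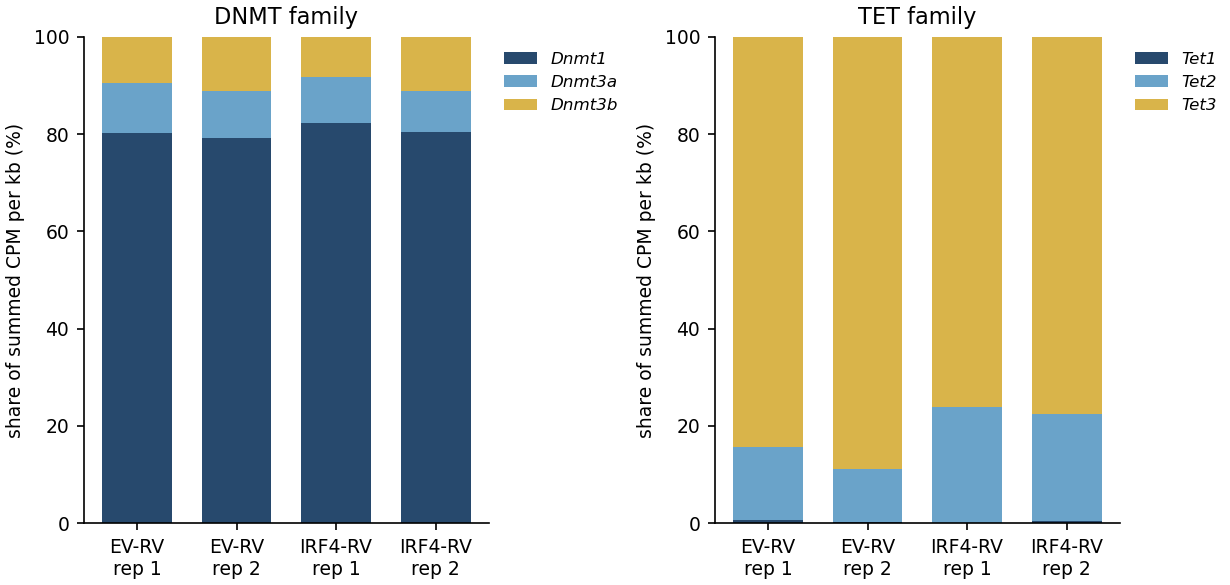
Share of the summed CPM per kb (vertical axis, percent) taken by each DNMT gene (left) and each TET gene (right) in each of the 4 libraries. *Dnmt1* took between 79.2 and 82.3% of the DNMT level in every library, while *Tet2* took 10.8 to 15% of the TET level with EV-RV and 22 to 23.9% with IRF4-RV.

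*Tdg* (ENSMUSG00000034674, chromosome 10, 82629828 to 82650799, plus strand), which excises oxidized methylcytosine, was at 103.1 and 112.5 CPM with EV-RV and at 95.96 and 95.42 CPM with IRF4-RV. Both IRF4-RV libraries were lower, by little. The log2 fold change of -0.17 was not called (SE 0.0791, edgeR adjusted p = 0.17). It was called with library size alone (-0.26, adjusted p = 0.0342) and without EV-RV replicate 1 (-0.24, adjusted p = 0.0989). *Tdg* shares 367 exon bases, 6.83% of its exons, with *Glt8d2* on the opposite strand, and whether counting used the strand is not given in the sources used here.

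*Mbd2* (ENSMUSG00000024513, chromosome 18, 70568189 to 70626131, plus strand), the methyl-CpG reader, was at 148 and 150.2 CPM with EV-RV and at 124.4 and 126.2 CPM with IRF4-RV. The gap between the groups was many times the gap between replicates, although the change was small. The gene fell by 16% (log2 fold change -0.25, SE 0.071, edgeR adjusted p = 0.0399), with -0.27 to -0.24 when single libraries were left out. Its adjusted p passed 0.1 without EV-RV replicate 2 (0.101), without IRF4-RV replicate 1 (0.181) and without IRF4-RV replicate 2 (0.191).

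**Figure D3:**
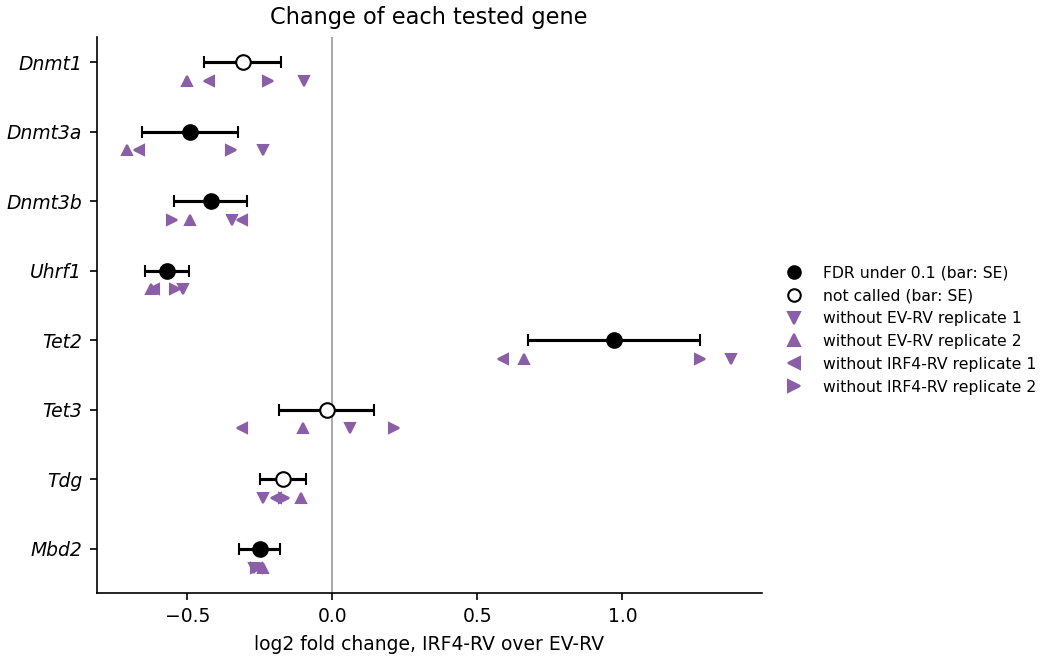
Log2 fold change of IRF4-RV over EV-RV (horizontal axis) for the 8 genes tested, with bars for the SE, filled circles for genes called at an FDR of 0.1, and triangles for the fits that leave out 1 library. The *Uhrf1* and *Mbd2* triangles stay close to the full fit, and those of *Tet3* lie on both sides of 0.

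Compared with each other per length, in CPM per kb of merged exons, *Uhrf1* was the highest with EV-RV (84.5 ± 4.96), before *Mbd2* (46.4 ± 0.493), *Dnmt1* (25.3 ± 5.02) and *Tdg* (20.1 ± 1.24; SD, n = 2 each). Lower levels were those of *Dnmt3b* (3.22 ± 0.238), *Dnmt3a* (3.15 ± 0.726), *Tet3* (1.17 ± 0.0955), *Tet2* (0.177 ± 0.0614) and *Tet1* (0.0069 ± 0.00395; SD, n = 2 each). *Dnmt1* and *Tdg*, and *Dnmt3b* and *Dnmt3a*, lay within their spread. With the length of the longest coding transcript, *Dnmt3a* (5.42) came before *Dnmt3b* (3.81), so their order depends on the length used. With IRF4-RV the order was the same, from 57 CPM per kb for *Uhrf1* to 0.349 for *Tet2* and 0.00267 for *Tet1*. The maintenance pair thus stood well above the de novo enzymes, and the enzymes that oxidize the mark were the lowest of all in both groups.

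The wider machinery was read from 5 lists with 66 genes, of which 56 were tested. In these, 7 genes were higher and 19 lower with IRF4-RV, so that 46.4% were called, against 29.7% of all genes tested. With the stricter filter on low counts, 4376 of 11884 genes were called over all, and 26 of 56 in the lists. The lists were chosen with earlier results of these data known, so a larger share in them is no independent evidence. The median log2 fold change of the 56 was -0.04. With each library left out in turn, 18 to 22 genes were called, and 13 of the 26 kept their call in all 4 of these fits.

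Partners of methylation held 0 higher and 4 lower genes among 9 tested (0 higher also at an unadjusted p under 0.05, and with DESeq2). *Cdca7*, which recruits the remodeler HELLS to hemimethylated DNA, fell by 0.66 on the log2 scale (edgeR adjusted p = 0.000794), and its paralog *Cdca7l* by 0.60 (adjusted p = 0.00147). *Cdca7l* shares 19.71% of its exon bases with *Dnah11* on the opposite strand. *Trim28*, the corepressor of KRAB zinc finger proteins, fell by 0.31 (adjusted p = 0.0168), and *Pcna*, the replication clamp that DNMT1 binds, by 0.30 (adjusted p = 0.0355). *Hells* itself was not called, at -0.13 (adjusted p = 0.299), nor was *Uhrf2*, the paralog of *Uhrf1*, with means of 58.01 and 58.02 CPM (adjusted p = 0.999). Without either IRF4-RV library, *Trim28* and *Pcna* were no longer called, and *Pcna* also not without EV-RV replicate 2, whereas *Cdca7* and *Cdca7l* were called each time.

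Readers of methyl-CpG and NuRD subunits went both ways, with 4 higher and 3 lower genes among 17 tested and a median of 0.03. *Mbd4*, a reader that is itself a glycosylase for mismatches at CpG, rose from 7.03 to 14 CPM in the mean, with 228 counts in each EV-RV library and 470 and 517 in the IRF4-RV libraries (edgeR adjusted p = 0.000799). On the log2 scale, *Mbd1* rose by 0.39 (adjusted p = 0.00837), *Zbtb4* by 0.63 (adjusted p = 0.0705) and *Hdac1* by 0.25 (adjusted p = 0.0392). The NuRD genes *Rbbp7*, *Hdac2* and *Mbd3* fell by 0.34, 0.31 and 0.27 (largest adjusted p = 0.0331). *Mbd3* and *Mbd2* code for the alternative MBD subunits of NuRD, and they fell by nearly the same amount. The remodeler *Chd4* was at -0.08 (adjusted p = 0.783). Without IRF4-RV replicate 1, 3 genes of this list were called, *Mbd4* and *Mbd1* higher and *Rbbp7* lower.

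In the repair branch that completes demethylation, 3 genes were higher and 3 lower among 13 tested. *Gadd45g* had the largest change of all listed genes of the pathway, from 203 and 138 counts to 1146 and 901 (log2 fold change 2.48, SE 0.2, edgeR adjusted p = 0.000136). GADD45 proteins are stress-induced and have been linked to active demethylation. *Gadd45a*, with 337 of its exon bases shared with *E230016M11Rik* on the opposite strand, rose by 0.70 (adjusted p = 0.0283, but 0.107 without EV-RV replicate 2), and *Mbd4*, named above, is on this list too. *Apex1*, *Ung* and *Lig3* of base excision repair fell by 0.62, 0.46 and 0.27 (largest adjusted p = 0.0453). *Apex1* shares 61.67% and *Lig3* 25.07% of their exon bases with a gene on the opposite strand, so these values are uncertain, and *Lig3* kept its call in 1 of the 4 fits with a library left out.

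TET partners and the enzymes around 2-oxoglutarate, the cosubstrate of TETs, held 0 higher and 4 lower genes among 9 tested (0 higher also at an unadjusted p under 0.05 and with DESeq2, and 3 with the replicate block). *Cxxc5*, a CXXC protein that binds TET2, fell by 0.49 on the log2 scale, and *Idh3a* and *Idh2* by 0.33 and 0.27 (largest edgeR adjusted p = 0.0541). *Cxxc5* was called with each library left out, *Idh3a* lost its call without EV-RV replicate 2 (adjusted p = 0.102), and *Idh2* lost its call with any library left out. Of the methyl donor cycle, which makes S-adenosylmethionine, 1 gene was higher and 5 were lower among 9 tested. *Mthfd1* fell by 0.54, *Mat2a*, which makes S-adenosylmethionine, by 0.53, *Mtrr* by 0.35 and *Ahcyl1* by 0.28 (largest adjusted p = 0.0437). The fifth lower gene, *Mtr*, named after its value was seen, fell by 0.26 (adjusted p = 0.0745). *Mat2a* shares 11.32% of its exon bases with *Particl* on the opposite strand. Without IRF4-RV replicate 2, 3 genes were called in this list, *Mthfd1* and *Mat2a* among them.

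**Figure D4:**
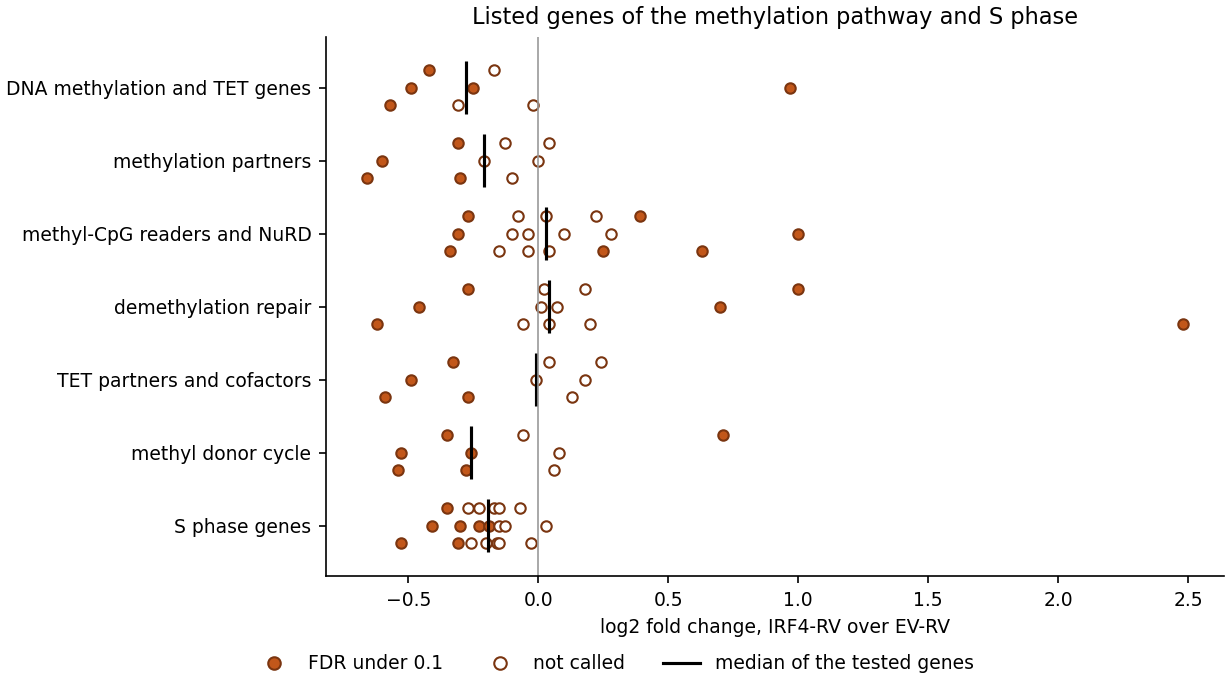
Log2 fold change of IRF4-RV over EV-RV (horizontal axis) for each tested gene of 7 lists, filled where the gene was called at an FDR of 0.1, with a line at the list's median. Points of a list are spread vertically for legibility only. *Gadd45g* at 2.48 stands apart on the right, and 19 of the 20 S phase genes lie below 0.

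Since *Uhrf1* and *Dnmt1* are expressed with replication, 20 S phase genes were read beside them. *Pcna*, named above as a lower methylation partner, is also among these 20. In this list 7 genes were lower and 0 higher (0 higher also at an unadjusted p under 0.05, and with DESeq2). The share called was 35.0%, not far from the 29.7% of all genes tested. Of the 20, 19 were below 0, with a median of -0.19, against 7203 of all 14637 genes. The stricter filter on low counts gave 10 lower genes and the replicate block 16. The lowest values were those of *Ccne2*, *Cdc6* and *Pola1*, which fell by 0.53, 0.41 and 0.35 on the log2 scale. *Ccne2* shares 17.42% of its exon bases with *Ints8* on the opposite strand, so its value is uncertain. *Uhrf1*, at -0.57 (SE 0.076), was below all 20, but the gap to *Ccne2* at -0.53 (SE 0.0973) was smaller than either SE. With library size alone 18 S phase genes were lower, without EV-RV replicate 1 the number was 12, and without either IRF4-RV library it was 3. What part of the *Uhrf1* change goes with replication was not tested.

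Germline genes known to be kept silent by DNA methylation were also counted, as were imprinted genes, which are silenced on only a single parental copy. Counts per gene do not tell the parental copies apart. None of 15 germline genes passed the filter on low counts, and 12 of them had at most 3 counts in each library. The summed counts of the 15 were 7 and 8 in the EV-RV libraries, and 21 and 28 in the IRF4-RV libraries. *Brdt*, a testis bromodomain gene, held 9 and 16 of the IRF4-RV counts and 3 and 0 of the EV-RV counts. Of 20 imprinted genes, 10 were tested and 1, *Grb10*, was called, with 46 to 59 counts in EV-RV and 98 to 106 in IRF4-RV libraries (log2 fold change 0.84, edgeR adjusted p = 0.0401). Without EV-RV replicate 2 its adjusted p was 0.161, and DESeq2 called 0 of the 10. The paternally expressed *Dlk1* was high in all libraries, at 198.3 CPM with EV-RV and 196 CPM with IRF4-RV (adjusted p = 0.895).

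Replicate number went with the level of several of these genes. The log2 difference of replicate 1 over replicate 2 was 0.72 with EV-RV and 0.66 with IRF4-RV for *Tet2*, 0.47 and 0.30 for *Dnmt3a*, 0.41 and 0.18 for *Dnmt1*, and 0.17 and 0.51 for *Tet3*. For *Uhrf1* it was 0.12 and 0.05, and for *Mbd2* -0.02 in both groups. *Dnmt3b* and *Tdg* differed in sign between the groups. Over the 3646 tested genes with merged exons of 6039 bases or more, a length class chosen after the values were seen, the median difference was 0.06 with EV-RV and 0.09 with IRF4-RV. Stromal markers went the other way and were higher in replicate 2. Without IRF4-RV replicate 2, where they were highest, the log2 fold changes were -0.54 for *Uhrf1*, -0.55 for *Dnmt3b* and 1.27 for *Tet2*, which stayed called. In the same fit *Dnmt3a* at -0.35 (edgeR adjusted p = 0.123) and *Mbd2* at -0.26 (0.191) were no longer called, and *Tet3* was at 0.21.

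For each called gene, the closest patterns among the 56 tested genes of the 5 lists were found by the root mean square distance of centered log2 CPM over the 4 libraries. Closest to *Uhrf1* were *Cdca7l* and *Mthfd1* (0.04 each). *Mbd3* (0.015) and *Idh2* (0.027) were closest to *Mbd2*, *Mthfd1* (0.099) and *Trim28* (0.107) to *Dnmt3b*, and *Cxxc5* (0.163) and *Usp7* (0.174) to *Dnmt3a*. For *Tet2* they were *Zbtb4* (0.253) and *Gadd45a* (0.299), at larger distances than for the other called genes. The distances were not scaled, so they grow with the size of a change and with the spread between replicates.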

How the data were processed

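Bulk RNAseq counts of 2 EV-RV and 2 IRF4-RV libraries of T8 cells were used, with groups and replicate numbers from the sample titles. According to the submitters' processing notes and the paper's methods, reads were checked with FastQC (0.11.2), aligned to GRCm38 with STAR (2.4.0j) and assigned to genes with featureCounts. Raw counts, not normalized, are what the authors deposited. The settings for strand and for multiply aligned reads are not given in the sources used here, so that overlapping genes and paralogs are uncertain. Identifiers were matched to GENCODE M21 (52083 of 55359), which gave symbols, coordinates and exon lengths. The unmatched 3276 held at most 0.486% of a library.

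In R 4.3.3, genes passing filterByExpr (14637) were tested with edgeR 4.0.16 (TMM, quasi-likelihood test, Benjamini-Hochberg adjustment over all genes, FDR 0.1 as in the paper). SE is the absolute log2 fold change over the square root of F. In tests on simulated counts, a larger share of the calls was false than the FDR allows. Far fewer genes were changed in the simulation than were called here. Adjusted p-values near the threshold may thus be too small, by an amount that the simulation cannot give. Alternatives were DESeq2 1.42.0, other scalings and filters, an FDR of 0.05, the replicate block, and leaving out each library. In the latter, 1 library is assumed to vary like those of the other group.

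The 9 genes and the lists were chosen with earlier results of these data known. Genes named are the 9, *Irf4*, up to 4 higher and 4 lower called genes per list by size, untested genes whose low counts are stated, and the 2 listed genes closest in pattern to each called one. Listed genes that were not called but are given with values, *Hells*, *Uhrf2*, *Chd4* and *Dlk1*, were chosen after their values were seen, as were the markers given by name and the count ratios. Promoter sequences are from RefSeq (GRCm38.p6), where 8 of the 9 genes matched. Some listed genes are counted but not reported here by name.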

Additional observations from a re-analysis of the deposited data

How the results depend on the processing

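Of the 9 genes, 5 were called, and 5 to 7 with DESeq2, other scalings, other filters and the replicate block. At an FDR of 0.05 the number was 2, *Uhrf1* and *Mbd2*, by construction of the threshold. With single libraries left out it was 3 to 4, from fewer samples. Over all genes, 3347 to 6394 were called against 4349, and 3424 to 3642 with single libraries left out. In the 5 pathway lists, 18 to 34 genes were called against 26. With single libraries left out, the change in share ranged from 0.649 to 2.49 points for *Dnmt1*, from -1.44 to -0.53 for *Dnmt3a* and from 7.94 to 12.2 for *Tet2*, and the length used moved none of these 3 by more than the SD between replicates.

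Replicate numbers in the labels are shared by the groups, but nothing states that they mark a common batch. After subtracting group means, same-numbered libraries had an r of 0.26 over 14637 genes, which are not independent. With the replicate block 6394 genes were called over all, and 34 of the listed pathway genes. Of the 9 genes, 7 were called, with *Dnmt1* (edgeR adjusted p = 3.79e-06) and *Tdg* (0.0249) added and the direction of all 8 kept. The block leaves very little in 4 libraries to estimate a gene's own spread from. The SE of *Dnmt1* was 0.06 with it against 0.134 without. These p-values thus lean on the spread shared by all genes and may be far too small for a single gene. *Tet3* turned to 0.061 without EV-RV replicate 1 and to 0.214 without IRF4-RV replicate 2, from -0.313 to 0.214 over the left-out libraries, and was called in none of the alternatives run. At this depth *Tet1* could not be compared.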
